A study of Mus musculus with 55 samples.

Results

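The comparison set the EC sort against the LSEC sort in mouse liver after partial hepatectomy, the surgical removal of part of the liver that starts its regrowth. It used 8 of the series' 55 libraries, 3 labelled endothelial cell (EC) and 5 labelled liver sinusoidal endothelial cell (LSEC), taken by their labels and compared across all genes. Of 10 cell populations sorted by flow cytometry from normal and operated livers, these are the endothelial pair. All mice were labelled C57B/L6, with no transgene, allele or added agent named, and the surgery was the one treatment that all 8 libraries share. The labels give no age, sex or time after surgery, no gate for either sort, and nothing on whether libraries came from separate animals, so p-values measure the spread between these libraries, which may be technical. The same sorts from unoperated liver (2 EC and 3 LSEC libraries) served as the reference for how large the gap was without surgery.

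Liver endothelium is zoned along the path of the blood. Blood enters each lobule from portal vein and hepatic artery branches, flows through fenestrated sinusoids lined by scavenging endothelium (Stab1, Stab2, Lyve1, Clec4g), and leaves by the central vein. Endothelium at and near the central vein is known for the receptor tyrosine kinase Kit and for the secreted factors Wnt2, Wnt9b and Rspo3, which drive beta-catenin signalling in neighbouring hepatocytes, while arterial endothelium is marked by the gap junction protein Gja5, the Notch ligand Dll4 and the ephrin Efnb2. Arteries and larger veins also carry Vwf, Cd34 and an elastic wall.

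Along this axis the EC and LSEC sorts differed in opposite directions. Of 21 pericentral genes tested, 13 were higher in LSEC and 2 in EC, whereas of 23 portal or arterial genes tested 16 were higher in EC and 0 in LSEC. The 13 include Kit, Wnt9b, Rspo3 and Stc2, the markers given with the comparison, so that count is not independent of how the comparison was chosen. Over all 11753 genes tested by limma on log2(FPKM + 1), where FPKM is a fragment count scaled to transcript length and library size, 690 (5.87%) were higher in EC and 371 (3.16%) in LSEC at an adjusted p under 0.05, 9.03% in all. A gene past that threshold is referred to as called. Quantile normalization between libraries made the split 600 and 524 and moved the median difference of all tested genes from 0.06 to -0.04. Among the called genes, 561 higher in EC and 246 higher in LSEC also differed by at least 1 on the log2 scale with no overlap between the libraries of the 2 sorts. Over all 11753 tested genes, called or not and at any size of difference, the libraries did not overlap for 1792. Because sorted cells were measured in bulk, fewer cells of a type and less RNA per cell cannot be told apart.

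**Figure D1:**
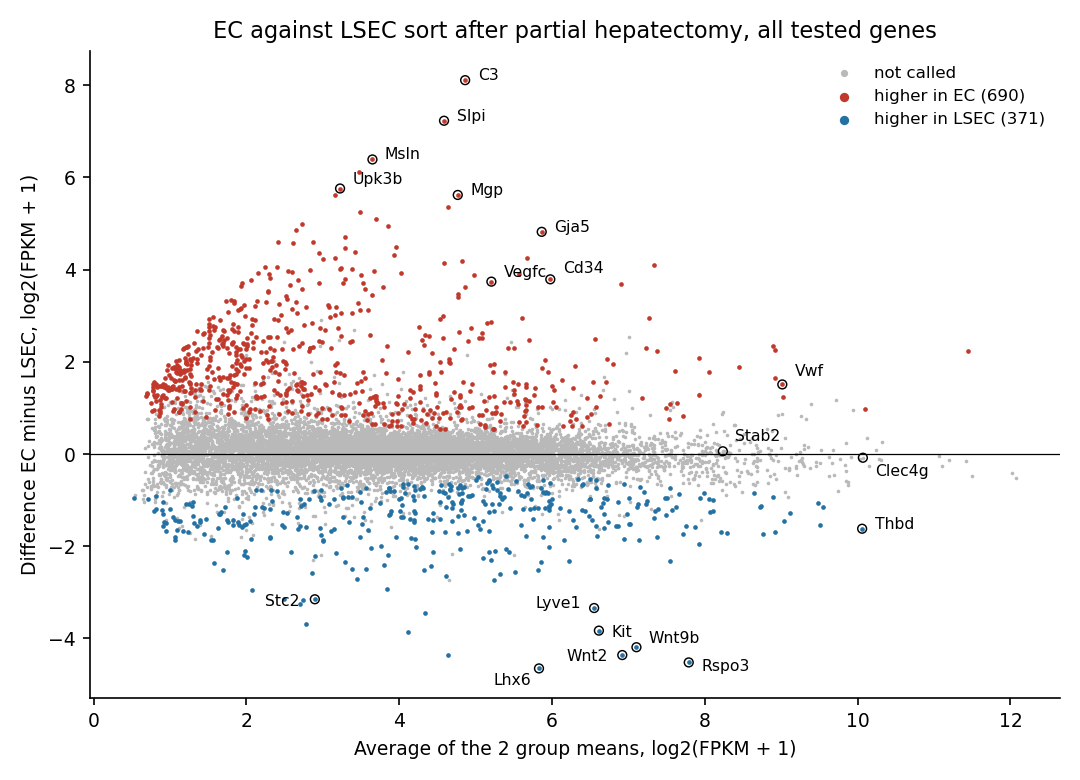
Difference between the EC and LSEC sorts after hepatectomy (vertical axis, log2(FPKM + 1), EC minus LSEC) against the average of the 2 group means (horizontal axis, same scale) for the 11753 tested genes. Red points are the 690 genes called higher in EC, blue points the 371 called higher in LSEC, grey points the rest, and rings mark labelled genes. Kit, Wnt2, Wnt9b, Rspo3 and Lhx6 form the lower edge at high expression, and the sinusoidal genes Stab2 and Clec4g lie at the zero line.

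Libraries of one sort correlated at 0.920 to 0.961 within EC and 0.921 to 0.979 within LSEC across genes, and at 0.868 to 0.908 between sorts. Sequencing depth is unknown, since the files give FPKM and no counts. A few libraries stood apart. LSEC library 2 had the highest mean level of the portal or arterial list among the LSEC libraries, 5.48 against 4.24 to 4.69 on the log2 scale, and it also led on the lymphatic list (3.16 against 1.01 to 1.52). EC library 1 had the highest summed mesothelial markers, and EC library 2 the highest summed hepatocyte, neutrophil and erythroid markers of the 8 (31.6, 36.9 and 65 FPKM). Leaving out LSEC library 2 raised the called genes to 1309, and leaving out EC library 2 lowered them to 743.

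Promoters are shown for 1 pericentral pair, 1 arterial gene and 1 mesothelial gene, because these 3 groups carry most of what follows. Each runs from 250 bases before to 50 bases after the RefSeq start site in GRCm38.p6, and capitals mark matches to the motifs searched.
Kit promoter, chr5:75574737-75575036, plus strand: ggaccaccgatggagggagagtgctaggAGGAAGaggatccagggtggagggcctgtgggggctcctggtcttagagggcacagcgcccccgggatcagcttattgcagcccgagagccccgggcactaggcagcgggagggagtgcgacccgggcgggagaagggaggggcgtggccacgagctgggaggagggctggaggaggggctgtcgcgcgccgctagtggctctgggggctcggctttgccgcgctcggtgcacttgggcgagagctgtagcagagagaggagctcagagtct
Wnt2 promoter, chr6:18030396-18030695, minus strand: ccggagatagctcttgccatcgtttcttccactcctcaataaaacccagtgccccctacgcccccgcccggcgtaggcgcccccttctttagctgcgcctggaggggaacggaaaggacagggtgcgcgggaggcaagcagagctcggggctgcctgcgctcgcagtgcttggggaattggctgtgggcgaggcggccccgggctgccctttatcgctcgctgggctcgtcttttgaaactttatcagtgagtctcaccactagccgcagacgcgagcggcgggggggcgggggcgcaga
Gja5 promoter, chr3:97032152-97032451, plus strand: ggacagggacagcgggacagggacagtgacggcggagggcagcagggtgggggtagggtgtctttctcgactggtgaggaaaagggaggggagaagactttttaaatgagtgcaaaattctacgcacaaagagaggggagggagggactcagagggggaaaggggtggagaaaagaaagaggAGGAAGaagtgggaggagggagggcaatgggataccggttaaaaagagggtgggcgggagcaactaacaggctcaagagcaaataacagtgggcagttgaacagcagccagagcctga
Upk3b promoter, chr5:136038246-136038545, plus strand: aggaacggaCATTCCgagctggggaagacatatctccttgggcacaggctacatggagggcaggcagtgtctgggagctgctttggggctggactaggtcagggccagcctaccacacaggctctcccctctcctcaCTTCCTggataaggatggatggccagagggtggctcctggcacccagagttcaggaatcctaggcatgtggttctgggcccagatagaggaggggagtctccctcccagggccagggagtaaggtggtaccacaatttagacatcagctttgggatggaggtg
The letters searched on both strands were AGATAA for GATA factors, TGANTCA for AP-1, CTTTGA for TCF/LEF, TGGGAA for RBPJ, GGAATG for TEAD and AGGAAG for ETS factors. Kit holds the ETS letters from -222 and Gja5 from -68 relative to the start site, Upk3b holds a TEAD and an ETS match, and Wnt2 holds none of the 6. The ETS letters were in 34.4% of promoters of genes higher in LSEC, 31.7% of those higher in EC, 33.3% of those of all tested genes and 35.4% of all 32851 promoters in the table. For TEAD the shares were 10.7%, 16.6%, 12.4% and 14.7%, and for GATA 4.7%, 7.4%, 6.4% and 11.2%. Shares for TCF/LEF were 10.2%, 10.0%, 11.7% and 16.0%, for AP-1 8.9%, 7.4%, 5.0% and 7.8%, and for RBPJ 21.4%, 25.8%, 23.2% and 25.6%. A match describes the letters in a window and does not show a bound site. Of the called genes, 276 of 371 and 503 of 690 had a promoter in the table.

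Pericentral genes were the strongest group on the LSEC side. Kit, the stem cell factor receptor (mm9 chr5:75971015-76052746 as the table lists the transcript), stood at 361.4, 264.4, 452.7, 288.9 and 435.8 FPKM in LSEC libraries 1 to 5 and at 34.2, 13.9 and 28.3 FPKM in EC libraries 1 to 3. The lowest LSEC library lay far above the highest EC library. The means were 360.6 ± 84.5 (SD, n = 5) and 25.5 ± 10.4 FPKM (SD, n = 3), 14.2-fold apart, and the difference on the log2(FPKM + 1) scale was -3.83 (SE 0.30, limma adjusted p = 7.54e-05).

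Wnt9b and Wnt2 encode the Wnt ligands of the central vein niche. Wnt9b (mm9 chr11:103588676-103611135) was at 482.5, 430.3, 308.6, 710.8 and 561.2 FPKM in the LSEC libraries and at 81.6, 10 and 19.2 FPKM in the EC libraries. EC library 1 was the highest EC library, yet it stayed below every LSEC library. The difference was -4.19 (SE 0.55, limma adjusted p = 0.00113). Wnt2 (mm9 chr6:17938939-17980445) read 493.6, 488.0, 408.4, 643.9 and 512.4 FPKM in LSEC and 48.4, 11.4 and 23.1 FPKM in EC, a difference of -4.36 (SE 0.37, limma adjusted p = 0.000121). The Wnt2 groups did not overlap, and EC library 1 was again the highest of its sort.

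Rspo3, the R-spondin that amplifies Wnt signals at the receptor (mm9 chr10:29172912-29255673), had the largest difference of the 4 marker genes. Its levels were 864.9, 1084, 351.6, 1406 and 810.0 FPKM in LSEC and 117.9, 11.5 and 29.7 FPKM in EC. LSEC library 3 was the lowest and library 4 the highest. The difference was -4.52 (SE 0.65, limma adjusted p = 0.00189), between means of 903.2 ± 387.1 (SD, n = 5) and 53.1 ± 56.9 FPKM (SD, n = 3). Stc2, a secreted stanniocalcin (mm9 chr11:31259440-31270061), was far less abundant, at 19.3, 31.5, 8.56, 33.2 and 15 FPKM in LSEC and 2.57, 1.46 and 0.352 FPKM in EC. It followed Rspo3 in having library 3 lowest and library 4 highest, and it differed by -3.15 (SE 0.44, limma adjusted p = 0.00151).

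Lhx6, a LIM homeobox transcription factor, had the largest difference of the genes higher in LSEC that were under 30 FPKM in hepatocytes. It was at 214.8, 357.1, 142.0, 369.4 and 269.3 FPKM in LSEC and 20.1, 4.84 and 7.66 FPKM in EC, a difference of -4.65 (SE 0.42, limma adjusted p = 0.000145). Rab3b, a vesicle-trafficking GTPase, ran from 28.5 to 89.4 FPKM in LSEC with a median of 72.3 and from 1.77 to 5.76 FPKM in EC, and it differed by -3.85 (SE 0.40). Thbd, the thrombin receptor thrombomodulin, was abundant in both sorts, 1859 ± 362.4 FPKM (SD, n = 5) in LSEC and 610.4 ± 162.1 FPKM (SD, n = 3) in EC, and was called at -1.62. Jup, or plakoglobin (-2.29), and Ptgs1, a cyclooxygenase (-1.56), were called in the same direction with no overlap. Selp, the leukocyte-capturing P-selectin, was called at -1.87 (SE 0.42), but the call was lost without EC library 2 or 3 (limma adjusted p up to 0.0923).

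The list's other members did not all go with it. Cdh13, a truncated cadherin, was 165.4 ± 36.4 FPKM (SD, n = 5) in LSEC and 100.2 ± 18.5 FPKM (SD, n = 3) in EC and did not pass the test (limma adjusted p = 0.0957). Fabp4, a fatty acid carrier, and Cd9, a tetraspanin, overlapped between the sorts. Rspo1, a second R-spondin, and the vasoconstrictor Edn1 were higher in EC. Rspo1 was at 23.3, 6.88 and 9.47 FPKM in EC against at most 0.0401 FPKM in LSEC, and its highest mean after hepatectomy was in the NPD sort, labelled non-progenitor ducts. Rspo1 passed the filter on low values through the EC libraries alone. The median difference over the 21 tested members was -1.56, beside 0.06 over all tested genes.

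**Figure D2:**
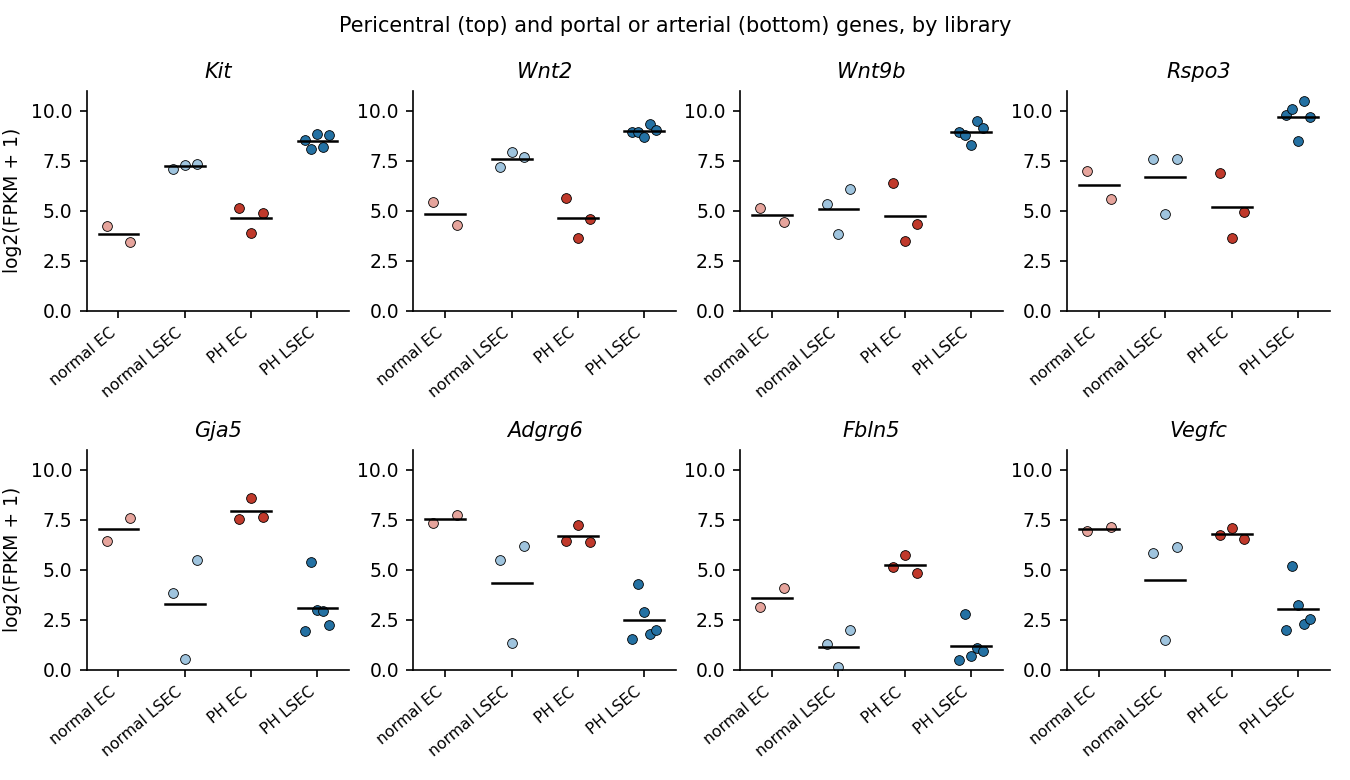
Levels of 4 pericentral genes (top) and 4 portal or arterial genes (bottom) on a log2(FPKM + 1) scale in each library of the normal and post-hepatectomy (PH) EC and LSEC sorts. Each point is a library and each bar a group mean. After hepatectomy the pericentral genes lie higher in all 5 LSEC libraries than in any EC library, the arterial genes lie higher in all 3 EC libraries, and LSEC library 2 is the highest LSEC point for each arterial gene.

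The 5 LSEC libraries also differed from each other in genes of this axis, but not all in the same order. Library 4 was the highest and library 3 the lowest of the 5 for Wnt2, Wnt9b, Rspo3, Lhx6, Stc2, Selp and Thbd, and for Ramp3 of the sinusoidal list. The sinusoidal scavenger receptors ran the other way: Stab2 read 268.1, 111.2, 812.3, 71.7 and 469.1 FPKM in libraries 1 to 5, and Clec4g 900.2, 839.3, 1919, 551.0 and 1311 FPKM. Library 3 was thus highest and library 4 lowest for both genes. Kit did not follow the Wnt genes here, since library 3 had its highest value and library 2 its lowest. Nor did Rab3b and Dkk3 of the pericentral list, which were both lowest in library 4. Rab3b read 86.9 FPKM in library 3 and 28.5 FPKM in library 4. Dkk3 read 11.9 FPKM in library 3, its highest, and 1.6 FPKM in library 4. These genes were picked after their values were seen, and the pattern is a description of 5 libraries.

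Sinusoidal genes were mostly not called, but a few differed strongly. Of 24 tested genes of this list, 4 were higher in LSEC, 1 was higher in EC and 19 were not called, or 20.8% called beside 9.03% of all tested genes, with a median difference of -0.37. Stab2, the hyaluronan scavenger receptor, was 260.4 ± 84.4 FPKM (SD, n = 3) in EC and 346.5 ± 303.8 FPKM (SD, n = 5) in LSEC, a difference of 0.06 (SE 0.70). Clec4g, a sinusoidal lectin, was 1042 ± 560.1 FPKM (SD, n = 3) in EC and 1104 ± 530.0 FPKM (SD, n = 5) in LSEC, a difference of -0.08 (SE 0.42). The libraries labelled EC held high levels of sinusoidal markers, and the scavenger receptors Mrc1 and Fcgr2b also overlapped. Pan-endothelial genes were high in both sorts, with 1 of 17 called, 5.88% beside 9.03% of all tested genes. That gene, Emcn, an endothelial sialomucin, was 1.84-fold higher in LSEC (limma adjusted p = 0.0454), a call lost when any of 7 of the 8 libraries was left out.

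Of the sinusoidal members that did differ, Lyve1 and Ramp3 had large differences. Those of Tfpi2 (-1.33), Flt4 (-1.38) and Il1a (1.22) were smaller. Lyve1, a hyaluronan receptor shared with lymphatics, was at 319.8, 212.4, 339.0, 195.6 and 383.0 FPKM in LSEC and 47.5, 19.5 and 20.7 FPKM in EC. No EC library came near the LSEC range, and the difference was -3.34 (SE 0.33, limma adjusted p = 0.000224). Ramp3, an accessory protein of the adrenomedullin receptor, was at 102.9, 163.4, 43.3, 180.4 and 77.5 FPKM in LSEC and 7.51, 3.68 and 2.08 FPKM in EC, a difference of -4.35 (SE 0.47, limma adjusted p = 0.000406). Tfpi2, a protease inhibitor, was at 21.1, 18.3, 19.3, 31 and 21.2 FPKM in LSEC and 8.83, 6.18 and 9.49 FPKM in EC, and it stood at 50.9 FPKM in hepatocytes, its highest population. Flt4, the receptor for Vegfc, was 2.79-fold higher in LSEC (limma adjusted p = 0.022), a call lost on leaving out any EC library or LSEC library 1 or 5. Il1a, a cytokine, was the member higher in EC, at 227.9, 171.6 and 255.4 FPKM against 65.4 to 120.2 FPKM.

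Outside the lists, the largest differences toward LSEC included Sema3d, a guidance semaphorin, at 37.8 to 78.2 FPKM (median 63.7) in LSEC and 1.88 to 10.3 FPKM in EC (-3.44, SE 0.39). Ackr4, a chemokine scavenging receptor, was at 14.5 to 21.9 FPKM in LSEC and 0.417 to 2.38 FPKM in EC (-3.26, SE 0.28). Plppr5, a phospholipid phosphatase-related protein, differed by -3.68 (SE 0.31), and Glp1r, the incretin receptor, by -3.16 (SE 0.55). Adamtsl2, a matrix protein that binds fibrillin, was at 14.6 to 20.5 FPKM in 4 LSEC libraries and 5.93 FPKM in library 3, against 0.11 to 1.6 FPKM in EC. Its highest mean was in stellate cells (218.2 FPKM), as was that of Sema3d (67 FPKM).

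Portal and arterial genes formed the counterpart on the EC side. The 16 called of 23 tested had no exception in direction, and the median difference of the list was 2.04. Gja5, the connexin of arterial endothelium (mm9 chr3:96836324-96857557), was at 183.9, 379.2 and 199.7 FPKM in EC and at 2.82, 41.5, 6.82, 6.55 and 3.77 FPKM in LSEC. LSEC library 2 was several times above the other LSEC libraries and still below all EC libraries. The difference was 4.82 (SE 0.67, limma adjusted p = 0.00157), 20.7-fold between means, and the EC sort had the highest mean of the 10 populations after hepatectomy. Adgrg6, an adhesion receptor, was at 85.4, 150.3 and 82.9 FPKM in EC and 1.95, 18.7, 6.45, 2.44 and 2.98 FPKM in LSEC (4.18, SE 0.56).

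Fbln5, an elastic fibre protein, had 33.7, 52.4 and 27.5 FPKM in EC and 0.421, 5.89, 0.632, 1.16 and 0.911 FPKM in LSEC. Again library 2 was the high LSEC library, and the groups stayed apart (4.02, SE 0.47, limma adjusted p = 0.000567). Vegfc, the ligand of Flt4, was at 104.6, 137.0 and 93.3 FPKM in EC against 3.01 to 35.2 FPKM in LSEC with a median of 4.86 (3.74, SE 0.61). The ligand was thus higher in EC and its receptor Flt4 higher in LSEC. Mecom, a zinc finger transcription factor of arterial endothelium, was 80.6 ± 14.4 FPKM (SD, n = 3) in EC and 8.05 ± 6.82 FPKM (SD, n = 5) in LSEC. Efnb2, the arterial ephrin, was 72.5 ± 7.04 FPKM (SD, n = 3) and 13.7 ± 8.29 FPKM (SD, n = 5), a difference of 2.51. Ntn4, a netrin (2.09), Ltbp4, which binds latent TGF-beta (1.81), and the fatty acid transporter Cd36 (1.65) were also called.

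The members that were not called marked a limit of the pattern. Gja4, another arterial connexin, was 477.1 ± 66 FPKM (SD, n = 3) in EC and 589.6 ± 92.5 FPKM (SD, n = 5) in LSEC and did not pass the test. Nrp1, a VEGF co-receptor (0.01, SE 0.25), Notch4 (0.47) and Hes1 (0.99) were not called either. Sox17, an arterial transcription factor, was called (1.60, limma adjusted p = 0.028), but the call ended when any library other than LSEC library 2 was left out (adjusted p up to 0.105).

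Genes of larger vessels and continuous endothelium also sat higher in EC, with 11 of 24 tested called higher in EC and 1 in LSEC (median 1.32). In all 50% were called, beside 9.03% of all tested genes. Mgp, the matrix Gla protein that restrains calcification, was at 184.8, 162.7 and 193.7 FPKM in EC and at 1.48, 6.51, 3.78, 1.2 and 2.42 FPKM in LSEC. All EC libraries were alike and far above the LSEC range (5.62, SE 0.36, limma adjusted p = 3.66e-05). Cd34, a sialomucin, was at 183.0, 272.0 and 158.9 FPKM in EC and 3.6 to 43.9 FPKM in LSEC with a median of 10.8 (3.79, SE 0.61). Mgp and Cd34 had their highest mean in the NPD sort (862.9 and 323.2 FPKM). Ly6c1, a GPI-anchored protein whose close relatives could share its fragments, was 417.5 ± 153.9 FPKM (SD, n = 3) against 33.1 ± 18.5 FPKM (SD, n = 5), and was highest in EC.

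Ace, the angiotensin-converting enzyme, was at 52.4, 97.6 and 42.8 FPKM in EC and 5.52 to 8.84 FPKM in LSEC (2.92, SE 0.26, limma adjusted p = 0.000135). Pdlim3, an actin-associated protein, was called at 3.70 (SE 0.37). Vwf, the platelet-tethering protein of large vessels, was 845.5 ± 241.9 FPKM (SD, n = 3) in EC and 314.6 ± 153.5 FPKM (SD, n = 5) in LSEC. Its call (limma adjusted p = 0.0284) was lost without EC library 1 or 2 or LSEC library 1 or 5. Plvap, the diaphragm protein, and Vcam1 were not called. Sox7, a SOX factor, was the member higher in LSEC (-0.93), a call lost when any library other than LSEC library 2 was left out.

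**Figure D3:**
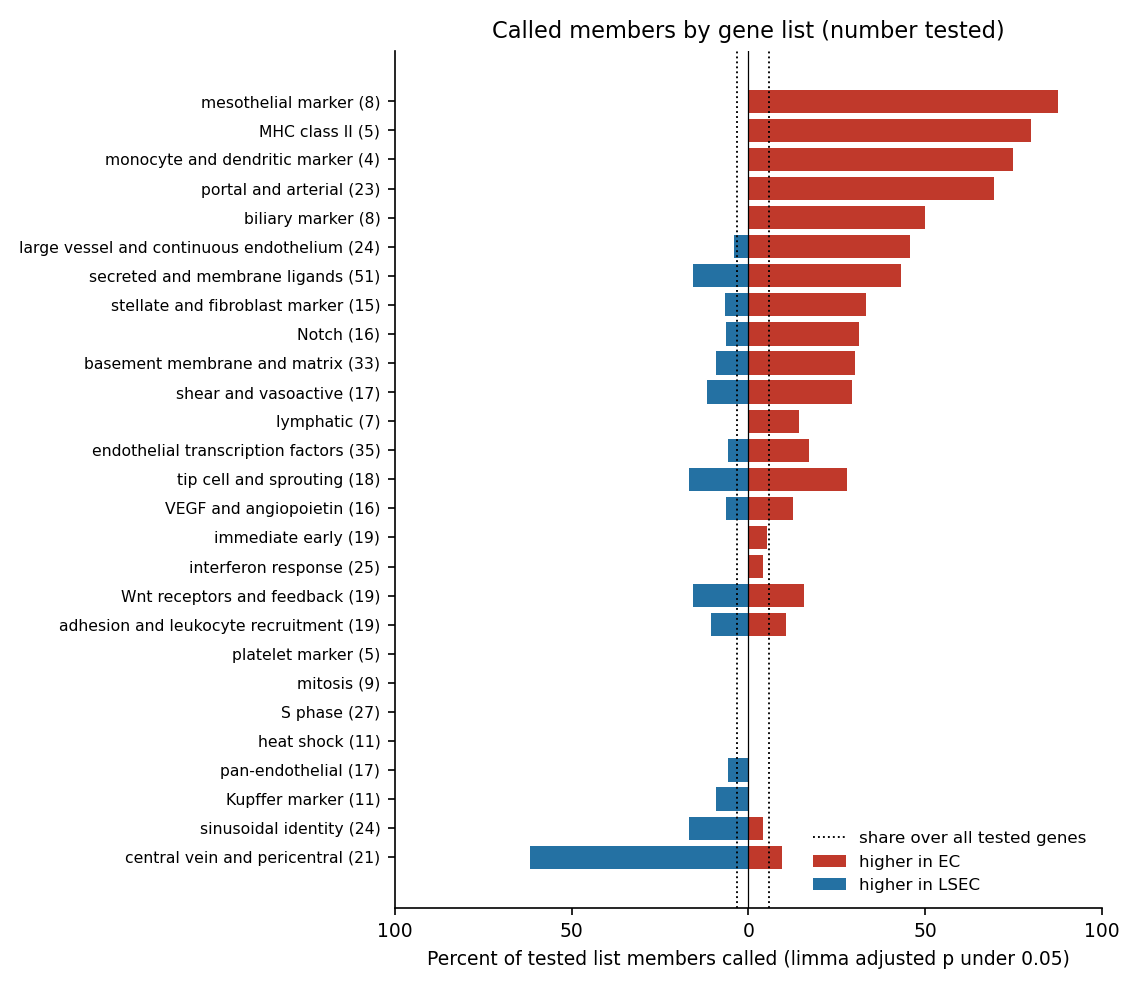
Share of the tested members of each gene list called higher in EC (red, to the right) or higher in LSEC (blue, to the left), in percent, with the number tested in brackets and lists with at least 4 tested members shown. Dotted lines give the shares over all tested genes, 5.87% and 3.16%. Mesothelial, MHC class II, monocyte and portal or arterial lists reach furthest toward EC, and the pericentral list is the one that reaches far toward LSEC. Some members passed the filter through the EC libraries alone, among them Msln, H2-DMb1 and S100a4 of the first 3 of these lists.

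Secreted and membrane ligands split by sort. Of 60 listed, 51 passed the filter on low values, and of these 22 were higher in EC, 8 higher in LSEC and 21 not called. The share called was 58.8%, beside 9.03% of all tested genes. That share is not independent of earlier choices. Rspo1, Sema3c, Slit2, Slit3, Wnt4 and Il6 passed the filter through the EC libraries alone, which leaves them high in EC. Wnt9b, Rspo3 and Stc2 are among the markers given with the comparison. Beside Wnt2, Wnt9b, Rspo3 and Stc2, the LSEC side held 3 members of the TGF-beta family: Tgfb2 at 21.5 ± 9.65 FPKM (SD, n = 5) against 3.27 ± 1.74 FPKM (SD, n = 3) in EC (-2.35, limma adjusted p = 0.00619), Tgfb1 (-1.06, adjusted p = 0.0056) and the activin subunit Inhbb. Tgfb3 (0.90), Inhba (0.25), Bmp4 (-1.17) and Bmp6 (0.57) of the same family were not called. Inhbb was called at -1.34, and its call ended when any of 6 of the 8 libraries was left out. Tnfsf10, the death ligand TRAIL, was the eighth (-0.92).

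On the EC side, Nrg1, an ErbB ligand, was at 55, 90.1 and 31.5 FPKM in EC and 0.831, 10.7, 1.1, 1.2 and 0.66 FPKM in LSEC (4.31, SE 0.61, limma adjusted p = 0.00172). EC was its highest population. The platelet-derived growth factors Pdgfa (2.35), Pdgfb (1.99) and Pdgfd (1.33) were all called higher in EC, Pdgfb no longer without EC library 2 (adjusted p = 0.0508). Slit2 (2.34) and Slit3 (2.82), guidance ligands, and Wnt4 (2.04) were called at levels under 10 FPKM in every library. Sema3c, a semaphorin, was at 24.1, 6.03 and 9.19 FPKM in EC and at most 0.682 FPKM in LSEC, and was highest in NPD. Hgf, the hepatocyte mitogen, was 23.6 ± 1.29 FPKM (SD, n = 3) in EC and 46.9 ± 26 FPKM (SD, n = 5) in LSEC and did not pass the test, nor did the angiocrine ligand Bmp2 (-1.05, SE 0.47).

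Receivers and feedback genes of the Wnt pathway were called in both directions. Of 19 tested, 3 were higher in EC, 3 higher in LSEC and 13 not called (median 0.07). In all 31.6% were called, beside 9.03% of all tested genes. Nkd1, a feedback inhibitor induced by Wnt signals, was at 33.1, 24.3, 27.8, 31.5 and 30.8 FPKM in LSEC and 10.1, 8.76 and 11.2 FPKM in EC (-1.47, SE 0.16, limma adjusted p = 0.000343). Axin2, the classic feedback target, was 4.68 ± 0.342 FPKM (SD, n = 5) and 2.36 ± 0.679 FPKM (SD, n = 3), with a call (-0.78) that ended on leaving out any of 6 libraries. Lrp5, a co-receptor, was called at -0.96 and lost its call without EC library 1 or 3 or LSEC library 1 or 5. Apcdd1, a membrane inhibitor, was 5.16-fold higher in EC (2.19, SE 0.28), and Fzd1 was called at 1.21. Without EC library 1 or LSEC library 1 or 5, the count higher in LSEC was 1. Sfrp1, a secreted inhibitor, was at 2.23 to 3.48 FPKM in EC and listed at 0 in 4 of the 5 LSEC libraries. Sfrp1 thus passed the filter through the EC libraries alone.

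Notch genes were mostly higher in EC where they differed, with 5 of 16 tested called higher in EC and 1 in LSEC (median 0.64). In all 37.5% were called, beside 9.03% of all tested genes. Dll4, the arterial and tip cell ligand, was at 62.9, 132.8 and 74.1 FPKM in EC and at 6.52, 24.4, 23.2, 3.05 and 11.6 FPKM in LSEC (2.86, SE 0.57, limma adjusted p = 0.0102). The groups did not overlap, but without EC library 2 the adjusted p was 0.0552. Jag1, another ligand, was 114.6 ± 15.4 FPKM (SD, n = 3) against 29.9 ± 17.8 FPKM (SD, n = 5), and Hey1, a Notch target, 8.12 ± 1.4 against 0.984 ± 1.01 FPKM. The fringe enzymes, which modify Notch receptors, went in opposite directions: Mfng was 2.8-fold higher in EC, a call lost without EC library 2, and Lfng was higher in LSEC (-1.24, SE 0.17). Without EC library 2 the count higher in EC was 2. The receptor Notch1 was not called (0.06, SE 0.25).

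Sprouting and VEGF genes did not move as a block. In the tip cell list 5 of 18 tested were higher in EC and 3 in LSEC, 44.4% called beside 9.03% of all tested genes. Esm1, a tip cell proteoglycan, was at 6.18, 28.3 and 7.68 FPKM in EC and 0.04 to 1.99 FPKM in LSEC (2.93, SE 0.49), while Marcksl1 was 214.8 ± 22.2 FPKM (SD, n = 5) in LSEC and 76.4 ± 20.7 FPKM (SD, n = 3) in EC (-1.51). Without EC library 3, 1 tip cell gene was higher in LSEC. Igfbp3, a binding protein of insulin-like growth factors, was called at 3.79 and was highest in stellate cells (759.2 FPKM). Among 16 VEGF and angiopoietin genes, Vegfc and Vegfd were higher in EC and Flt4 in LSEC, 18.8% called. Vegfd passed the filter through the EC libraries alone. Kdr, the main VEGF receptor, was 245.3 ± 32.3 FPKM (SD, n = 3) in EC and 417.2 ± 201.5 FPKM (SD, n = 5) in LSEC and was not called, and Tek differed by -0.00 (SE 0.19).

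Vasoactive genes told the sorts apart by gene. Of 17 tested, 5 were higher in EC and 2, Thbd and Ptgs1, in LSEC, 41.2% called beside 9.03% of all tested genes. Ptgis, prostacyclin synthase, was at 126.0, 45.5 and 72.5 FPKM in EC and 0.772 to 2.23 FPKM in LSEC (4.94, SE 0.32), with its highest mean in NPD (1145 FPKM). Npr3, the natriuretic peptide clearance receptor, was at 10.4, 22.3 and 14.4 FPKM in EC and 0.07 to 0.731 FPKM in LSEC. Npr3 and Ptgs2, which was also called higher in EC, passed the filter through the EC libraries alone. Edn1, endothelin, was 4.11-fold higher in EC (limma adjusted p = 0.0146), a call lost without EC library 1 or 2. The shear-induced factors Klf2 (-0.55) and Klf4 (0.47) and the nitric oxide synthase Nos3 (-0.52) were not called.

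Among 35 endothelial transcription factors, 6 were higher in EC and 2 in LSEC, 22.9% called beside 9.03% of all tested genes. Mecom and Lhx6, described above, were the largest in each direction. Meis1 was 17.2 ± 2.84 FPKM (SD, n = 3) in EC and 6.19 ± 1.54 FPKM (SD, n = 5) in LSEC (1.36, SE 0.21). Gata6 was called at 1.72, lost without EC library 1 or 3 or with a pseudocount of 0.1. Gata4, which specifies sinusoidal endothelium, was 197.7 ± 19.9 FPKM (SD, n = 3) in EC and 257.4 ± 26.2 FPKM (SD, n = 5) in LSEC and was not called (limma adjusted p = 0.237). Epas1, a hypoxia-inducible factor, was called at 0.83, no longer without EC library 2.

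Matrix genes were called in both directions, 10 of 33 tested higher in EC and 3 in LSEC, 39.4% beside 9.03% of all tested genes. Lox, which cross-links collagen and elastin, was at 29.9, 26.2 and 21.2 FPKM in EC and 0.22, 3.1, 0.201, 0.681 and 0.26 FPKM in LSEC (limma adjusted p = 0.000227). Fbn1, the fibrillin of elastic fibres (2.52), Timp2 (2.27) and the vascular laminin Lama4 (1.45) were also higher in EC. Timp1, a metalloproteinase inhibitor, was at 186.8, 38.8 and 80.5 FPKM in EC and 7.28 to 16.4 FPKM in LSEC, with its highest mean in NPD (1196 FPKM). On the LSEC side, Mmp14, a membrane metalloproteinase, was 202.9 ± 18 FPKM (SD, n = 5) against 94.7 ± 9.95 FPKM (SD, n = 3) in EC (-1.09, SE 0.15). The basement membrane genes Col4a2 (-1.12) and Hspg2 (-1.21) were called, but their calls ended when any library other than LSEC library 2 was left out. The count higher in LSEC was 1 without EC library 1 or 3 or LSEC library 1, 3, 4 or 5.

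Few genes of the proliferation and stress lists were called, at shares of 0% to 5.26% beside 9.03% of all tested genes, and with lists this short the counts do not show that these programmes were alike. Of 27 S phase genes and 9 mitosis genes tested by limma, 0 were called. Mcm2, a replication helicase subunit, was 10.5 ± 2.68 FPKM (SD, n = 3) in EC and 12.7 ± 3.68 FPKM (SD, n = 5) in LSEC, and Mki67 did not exceed 1.16 FPKM in any of the 8 libraries. Heat shock genes had 0 of 11 called. Immediate early genes had 1 of 19 called, Nr4a1, at 72.6, 50.8 and 35.6 FPKM in EC and 2.56 to 16.3 FPKM in LSEC (2.51, SE 0.47). Fos, an early response gene, ranged from 326.1 to 1322 FPKM in EC and from 122.9 to 951.2 FPKM in LSEC and was not called. Interferon response genes had 1 of 25 called, Oas2, whose call was lost without EC library 2.

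Adhesion and recruitment genes gave 2 of 19 in each direction, 21.1% called beside 9.03% of all tested genes. Counts this small do not show that the list as a whole differed. The 2 higher in EC, Il6 and Cx3cl1, passed the filter through the EC libraries alone, which leaves them high in EC. Ccl2, a monocyte chemokine, was at 74.1, 35.9, 32, 91.1 and 32.2 FPKM in LSEC and 13.8, 3.73 and 22.3 FPKM in EC (-2.06, limma adjusted p = 0.036), a call lost without EC library 1 or 2 or LSEC library 1 or 4. Il6, which primes hepatocytes for regeneration, was at 4.07, 2.33 and 5.41 FPKM in EC and at most 0.832 FPKM in LSEC, and was listed at 0 in 3 LSEC libraries. Cx3cl1 was called in the same direction at 1.77 ± 0.725 FPKM (SD, n = 3) in EC and 0.13 ± 0.122 FPKM (SD, n = 5) in LSEC, a call lost with quantile normalization. Without EC library 2, neither Selp nor Ccl2 was called.

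Markers of some other cell types, chiefly mesothelial ones, were higher in EC, and their part in the results above was not tested. Of 8 mesothelial markers, all tested, 7 were higher in EC (87.5% called beside 5.87% of all tested genes). Their median difference was 4.85 over the list, and Gpm6a was not called. Msln, Upk3b, Upk1b and Wt1 passed the filter on low values through the EC libraries alone. Their summed level was 796.9, 208.4 and 340.4 FPKM in EC libraries 1 to 3 and 9.27 to 58.1 FPKM in LSEC. Msln, mesothelin, was at 254.3, 49.2 and 78.5 FPKM in EC and 0.05 to 0.822 FPKM in LSEC (6.39, SE 0.45, limma adjusted p = 5.54e-05). Upk3b, a uroplakin of mesothelium whose promoter is printed above, was at 125.3, 35.8 and 56.4 FPKM in EC and at most 0.351 FPKM in LSEC. The order of the EC libraries was the same for the sum, Msln and Upk3b: library 1, then 3, then 2. The transcription factor Wt1, a defining mesothelial marker, was at 16.7, 4.91 and 3.7 FPKM in EC and at most 0.1 FPKM in LSEC, so it shared the high library 1 but not the order of the other 2.

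**Figure D4:**
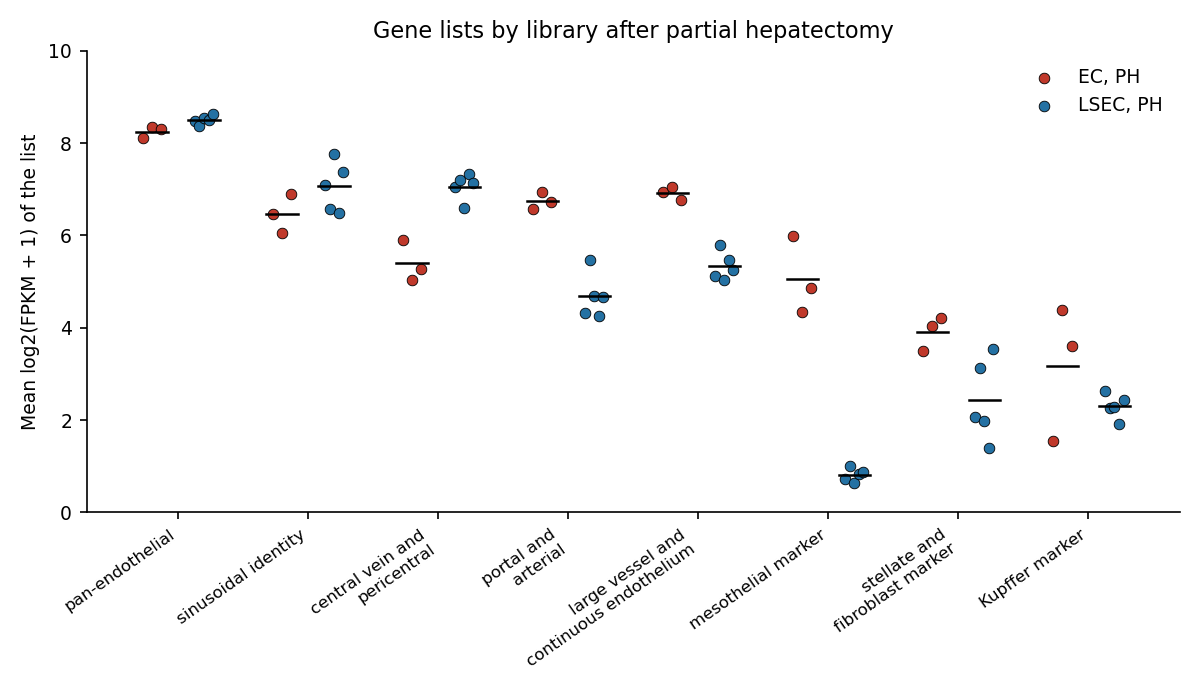
Mean log2(FPKM + 1) over the genes of 8 lists in each library after hepatectomy, EC in red and LSEC in blue, with bars at the group means. Pan-endothelial genes lie close together in the 2 sorts with EC slightly below, pericentral and portal or arterial genes separate them in opposite directions, and mesothelial markers lie between 4.35 and 5.98 in EC and between 0.63 and 1.01 in LSEC.

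Most of the largest differences toward EC were in genes with their highest level in another sort. Of the 14 largest under 30 FPKM in hepatocytes, Gja5 alone had its highest mean in EC, and the other 13 (Slpi, Msln, Dmkn, Upk3b, Mgp, Upk1b, Col3a1, Krt7, Krt19, Anxa8, Ptgis, Nkain4 and Igfbp6) were highest in NPD. Slpi, a secreted protease inhibitor, was at 652.4, 124.7 and 189.4 FPKM in EC, 0 to 1.73 FPKM in LSEC and 4187 FPKM in NPD. Across all 690 genes higher in EC, 227 (32.9%) had their highest mean after hepatectomy in NPD and 165 (23.9%) in EC, beside 12.2% and 9.03% of all tested genes. The library order 1, 3, 2 was shared by 142 of the 690 (20.6%) and by 1245 of all 11753 (10.6%). This order was taken from the mesothelial sum in the same libraries, and the called mesothelial markers are among the 690. Other orders were not counted, so no link to mesothelial content was tested. Of the 371 genes higher in LSEC, 200 (53.9%) were highest in LSEC and 55 (14.8%) in stellate cells, beside 8.64% and 12.5% of all tested genes. These counts use group means, and 1 of the 2 clonal biliary libraries titled as post-hepatectomy carries a treatment tag of normal. The pericentral genes Kit, Wnt2, Wnt9b, Rspo3 and Lhx6 were highest in LSEC, with the Thy1 sort next (127.6, 180.8, 218.3, 353.0 and 101.2 FPKM).

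Genes higher in EC that were also highest in EC included, beside Gja5, Adgrg6, Nrg1 and Fbln5, several picked here after their values were seen. Col8a1, a short-chain collagen of vessel walls, was at 16.1, 78.5 and 22.7 FPKM in EC and at most 0.662 FPKM in LSEC (4.61, SE 0.43). Cyp1a1, a target of the aryl hydrocarbon receptor, was at 18.5, 74.1 and 54.4 FPKM in EC and 0.0217 to 2.2 FPKM in LSEC (4.38, SE 0.49). Atp13a3, a polyamine transporter, was at 690.3, 601.2 and 375.0 FPKM in EC and 17.3, 145.8, 25.1, 24.7 and 15.7 FPKM in LSEC (4.11, SE 0.63). EC library 2 was the highest for Col8a1 and Cyp1a1 and EC library 1 for Atp13a3.

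Other marker lists gave smaller signals. Biliary markers had 4 of 8 tested higher in EC (50% beside 5.87% of all tested genes). These were the keratins Krt7, Krt8, Krt18 and Krt19, which mesothelium also expresses. Epcam, the defining biliary marker, was at 1.16, 1.95 and 7.81 FPKM in EC and 0.0697 to 1.99 FPKM in LSEC and was not called. The summed biliary list was 226.6 to 527.1 FPKM in EC and 12.2 to 115.5 FPKM in LSEC. Fibroblast and stellate markers had 5 of 15 tested higher in EC and 1 in LSEC, 40% called beside 9.03% of all tested genes. Their sums were 497.1 to 802.1 FPKM in EC and 202.2 to 540.2 FPKM in LSEC. Col3a1, a fibrillar collagen, was at 116.7, 107.8 and 213.6 FPKM in EC and 0.44 to 6.43 FPKM in LSEC (5.36, SE 0.55), and Col1a1 (3.77), Col1a2 (4.04), Acta2 and Tagln (2.21) followed, Tagln no longer without EC library 3. Ecm1, an extracellular matrix protein, was the member higher in LSEC (-1.15), a call lost without any 1 of the EC libraries. The stellate genes Lrat and Dcn were not called.

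Kupffer markers were uneven among EC libraries, with sums of 51.2, 357.8 and 245.2 FPKM in libraries 1 to 3 and 126.3 to 270.6 FPKM in LSEC. None of the 11 tested was higher in EC by limma, but without EC library 1 there were 4. Marco read 0.816, 41.5 and 38.5 FPKM in EC and 0.208 to 3.75 FPKM in LSEC. C1qb, a complement subunit, was the member higher in LSEC (-2.52, SE 0.33), a call lost in 1 fit of all 20 groups (limma adjusted p = 0.0722), while C1qa and C1qc were not called. Of 11 MHC class II genes, 5 passed the filter on low values, and 4 of these were higher in EC (80% beside 5.87% of all tested genes). H2-DMb1 passed the filter through the EC libraries alone. The summed list was at 10.9, 55.8 and 39.1 FPKM in EC against 1.34 to 6.19 FPKM in LSEC. The count higher in EC was 2 without EC library 2 or 3 or LSEC library 1, 3 or 4. Cd74 was at 4.68, 26.7 and 23.2 FPKM in EC and 0.0851 to 2.2 FPKM in LSEC, while the blood sort had 788.1 FPKM. H2-Aa and H2-Ab1 lost their calls on leaving out any of 6 libraries. Of 12 monocyte markers, 4 were tested and 3, namely Lyz2, S100a4 and Plac8, were higher in EC (75% beside 5.87% of all tested genes). S100a4 passed the filter through the EC libraries alone, with at most 0.961 FPKM in LSEC. Plac8 lost its call on leaving out any of 6 libraries, and Lyz2 in 1 fit of all 20 groups (limma adjusted p = 0.0548).

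Lymphocyte, neutrophil, platelet and erythroid lists had 0 called by limma, with at most 5 members tested in each. Of 7 lymphatic genes tested, 1 was called, Pdpn (4.46, higher in EC, highest in NPD), or 14.3% beside 9.03% of all tested genes. The defining lymphatic factor Prox1 was at 0 to 1.08 FPKM in EC and 0.437 to 4.04 FPKM in LSEC. Hepatocyte markers did not pass the filter, and 10 of 15, Alb among them, were listed at 0 in all 8 libraries. Values of exactly 0 made up 1.14% of values for genes under 30 FPKM in hepatocytes, 0.401% for genes at 30 to 300 FPKM and 3.41% for genes at 300 FPKM or more. An exact 0 can be a failed estimate. C3, a complement component, was at 814.3, 235.0 and 343.0 FPKM in EC and listed at 0.45, 0, 0, 0 and 3.64 FPKM in LSEC, with 3317 FPKM in hepatocytes and 7698 FPKM in NPD. Krt18, a keratin at 684.0 FPKM in hepatocytes, was at 132.0, 33.3 and 45.8 FPKM in EC and 1.4, 1.79, 0, 1.31 and 7.34 FPKM in LSEC. C1s1, a complement protease, was at 42.2, 14.9 and 44.7 FPKM in EC and 0 to 2.22 FPKM in LSEC, and Sdc1, a heparan sulphate proteoglycan, at 54, 139.4 and 70.1 FPKM in EC and 1.04 to 17.8 FPKM in LSEC. These 4 genes were picked for being called without overlap, so the separation of their EC and LSEC libraries follows from that choice.

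Whether the gap between the sorts differed between operated and normal liver was tested directly, as the EC minus LSEC difference after hepatectomy minus that in normal liver. Of 12824 genes tested by limma, 1 was called (0.00780%), and 921 had an unadjusted p under 0.05. The called gene was Serpinb2, a plasminogen activator inhibitor, at 12.4, 5.7 and 12.9 FPKM in EC and 0 to 0.291 FPKM in LSEC after hepatectomy, and at 0.1 FPKM or less in the 5 normal libraries. Its gap was 3.35 (SE 0.42, adjusted p = 0.0208). The call was lost in 8 of the 13 fits that left out 1 library, including PH EC library 1 and Norm EC library 1, and over all alternatives the adjusted p ran from 0.000899 to 0.383. Serpinb2 was highest in NPD (195.3 FPKM), with the Thy1 sort close to it (192.1 FPKM). The mesothelial markers Msln and Upk3b were also highest in NPD (1521 and 1033 FPKM), but further above Thy1 (506.1 and 273.0 FPKM).

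The pericentral genes differed in how normal liver looked. Kit was already apart there, at 134.1, 152.7 and 157.6 FPKM in LSEC and 17.8 and 9.67 FPKM in EC, and its gap changed by -0.44 (SE 0.45, limma adjusted p = 0.91). Lyve1 was likewise apart in both states (gap -0.35, SE 0.53). Wnt9b overlapped in normal liver, at 39.5, 13 and 65.8 FPKM in LSEC and 34.5 and 20.5 FPKM in EC, and so did Rspo3, at 189.6, 27 and 192.0 FPKM and 123.5 and 46.7 FPKM. The gap of Wnt9b was -3.91 (SE 0.98, limma adjusted p = 0.354) and that of Rspo3 -4.13 (SE 1.27, adjusted p = 0.477), so a change of gap was not shown for either. Stc2 was at 0 to 0.773 FPKM in normal LSEC and 1.82 and 1.01 FPKM in normal EC, the opposite order to operated liver. Its gap of -4.04 (SE 0.67, limma adjusted p = 0.0825) came closer to the threshold without passing.

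On the EC side, 0 of the 8 named portal or arterial genes passed the test of the gap. The EC minus LSEC difference was larger after hepatectomy than in normal liver for 7 of them. That count is favoured by the choice of genes, which were named for large differences after hepatectomy, and shows no trend. Gja5 was at 86.6 and 192.3 FPKM in normal EC and 13.2, 0.451 and 43.4 FPKM in normal LSEC, and its gap changed by 1.08 (SE 1.58). The change was 1.59 (SE 0.87) for Mecom, 1.57 (SE 0.82) for Fbln5, 1.19 (SE 0.87) for Hey1, 1.19 (SE 1.54) for Vegfc and 0.98 (limma adjusted p = 0.948) for Adgrg6, while Jag1 went the other way (-0.23, SE 1.21). With errors of this size, the tests show neither a change of gap nor equal gaps. Dll4 had a different layout in normal liver: LSEC read 163.8, 77.9 and 123.3 FPKM and EC 137.0 and 176.1 FPKM, overlapping, where after hepatectomy LSEC stood at 3.05 to 24.4 FPKM. Its gap of 2.45 (SE 0.87) missed the threshold, with a limma adjusted p of 0.552. Anxa8, highest in NPD, had a gap of 4.23 (SE 0.72, adjusted p = 0.0825).

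**Figure D5:**
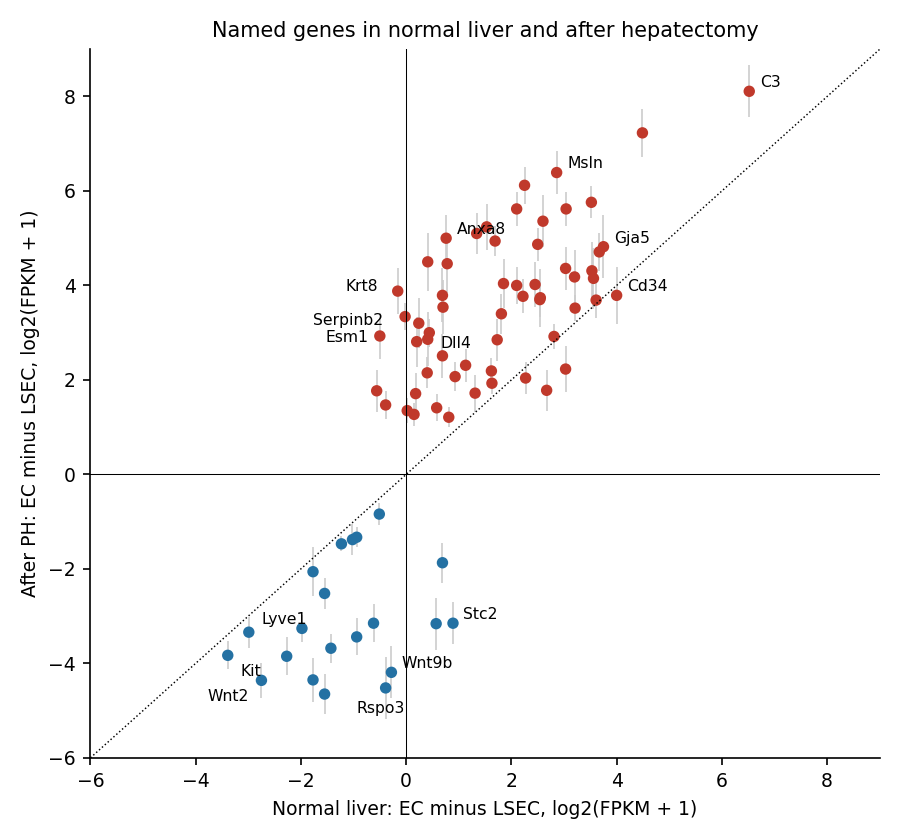
EC minus LSEC difference in normal liver (horizontal axis) against the difference after hepatectomy (vertical axis), both in log2(FPKM + 1), for the named genes whose libraries did not overlap after hepatectomy. Vertical bars are standard errors from limma, red marks genes higher in EC and blue those higher in LSEC, and the dotted line marks equal differences. Kit, Lyve1 and Cd34 lie near the line, while Stc2, Wnt9b, Rspo3 and Serpinb2 lie away from it, of which Serpinb2 passed the test of the gap.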

How the data were processed

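RNA from flow-sorted mouse liver populations was sequenced by standard Illumina protocols, per the labels' protocols. The authors deposited 1 table of FPKM values per transcript for 55 libraries. The submitters' processing notes name mm9, CASAVA 1.8.2 and Bowtie 1.0.0; the role of each and the counting tool are not given in the sources used here. The table has 36141 rows and 24478 symbols, and each symbol was represented by its row of highest average level across the series. Depth is unknown.

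Genes reaching 1 FPKM in 3 or more of the 8 libraries were tested. A gene could thus pass through the libraries of a single sort, which leaves it high in that sort. The test was on log2(FPKM + 1), with a pseudocount of 1, which understates the change of low genes. limma 3.58.1 in R 4.3.3 was used with a trend and robust moderation, two-sided, with Benjamini-Hochberg adjustment and a threshold of 0.05. The difference of gaps used all 4 groups and genes at 1 FPKM in at least 2 of 13 libraries. The fit was tested on simulated data. Figures were drawn with matplotlib 3.10.9.

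The comparison and the 31 gene lists were chosen with earlier results of these data known. Genes were named by a rule: the 14 largest per direction that were called, past 1 on the log2 scale, without overlap and under 30 FPKM in hepatocytes; up to 4 called members per list; the 4 markers given with the comparison; up to 4 genes at 30 FPKM or more in hepatocytes; and the largest differences of gaps that passed. The genes at 30 FPKM or more in hepatocytes also had to be called, past 1 on the log2 scale and without overlap. All other names, among them genes that were not called, were chosen after their values were seen. Alternatives were another pseudocount, no filter, quantile normalization, upper-quartile scaling, 1 fit of all 20 groups, a replicate block, a hepatocyte limit of 10 FPKM, the mean of a symbol's rows, plain moderation and leaving out each library.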

Additional observations from a re-analysis of the deposited data

Results flagged for a closer look

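In groups of 5 libraries, a library was singled out where its gap to the nearest other exceeded 0.71 of the group's range (Dixon's 95% value). Of 111 values examined, 17 stood out, where chance gives about 5.5. LSEC library 2 stood out most often: in the mean log2 level of the lymphatic list (3.16 against 1.01 to 1.52) and of the mitosis list (1.39 against 0.81 to 0.96), and in the FPKM of Msln (0.822), Fbln5 (5.89), Pdpn (4.78), Nrg1 (10.7), Il6 (0.832) and Lox (3.1), each time as the highest. LSEC library 3 was the lowest for Adamtsl2 (5.93 FPKM), Mfng (6.67 FPKM) and H2-Ab1 (0.0786 FPKM) and the highest for Serpinb2 (0.291 FPKM). LSEC library 4 was the highest for Tfpi2 (31 FPKM) and S100a4 (0.961 FPKM). LSEC library 5 was the highest for C3 (3.64 FPKM), Sfrp1 (0.01 FPKM) and the mean level of the Wnt receptor and feedback list (2.22 against 2.05 to 2.07).

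The gap between the sorts of Serpinb2 differed between operated and normal liver by 3.35 on the log2 scale, by the test of the difference itself.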

How the results depend on the processing

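The number of genes called between EC and LSEC after hepatectomy was between 989 and 1174 under 7 of the 9 alternatives that used every library, was 859 with the hepatocyte limit of 10 FPKM, where 7440 genes were tested, and ran from 743 (without EC library 2) to 1309 (without LSEC library 2) when 1 library was left out. With the replicate number as a block, 520 genes were called, 356 higher in EC and 164 in LSEC, and 488 of them were also called without it. The labels do not tie the numbers to animals, and the deviations of same-numbered libraries correlated at 0.20, 0.04 and 0.08, so the numbers were not taken as pairs; EC library 3 correlated best with LSEC library 5 (0.11). Of the 80 named genes, 20 lost their call under at least 1 alternative, 5 of them with the block alone. The alternatives gave 1352 differences for these genes, counting each gene under each setting. The number of these that changed direction was 0, which the naming of called genes made likely in advance. For the difference of gaps, where 1 gene was called, the count was 0 with a pseudocount of 0.1 and 0 with the block, 8 with no filter, 4 with quantile normalization, 63 in 1 fit of all 20 groups and 5 with plain moderation; leaving out 1 library gave 0 to 12. The causes were not tested. With no counts deposited, what depth limits could not be stated per gene.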
